A study of Bos taurus with 8 samples.

Results

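The genes described here encode fibrillar collagens and proteins of the matrix around them: COL1A1, COL1A2, COL3A1, LUM, POSTN, CTHRC1 and C1QTNF3. They were selected on their AAPH over control ratios in these same arrays, so those ratios are given as a description with no test. Every probe whose annotated symbol was one of the 7 genes was included, which gave 9 of the 43794 probes on the array and 7 of 15227 annotated genes. C1QTNF3 had 3 probes and the other 6 genes had 1 each. All 9 probes passed the filter on dim signal, as did 32931 probes in all.

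RNA came from bovine blastocysts produced in vitro from slaughterhouse ovaries and collected 196 hours after fertilization, with 10 embryos in each pool. The 4 AAPH pools were cultured with 0.01 mM AAPH from day 3 to day 7, and the 4 control pools had the same steps of synthetic oviductal fluid without it. AAPH is a water-soluble azo compound that breaks down to give peroxyl radicals. Total RNA was amplified, labelled with Cy3 or Cy5 and hybridised on 8 two-colour arrays, 4 with AAPH RNA in Cy5 and 4 with it in Cy3. The comparison asks which transcripts differ between blastocysts cultured with and without the radical source.

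Fibrillar collagens are triple helices that assemble into the tension-bearing fibrils of connective tissue. COL1A1 and COL1A2 encode the chains of type I collagen, and COL3A1 encodes type III collagen, which is often laid down with type I. Lumican binds fibrils and limits their width, periostin links collagen to other matrix proteins, and CTHRC1 and C1QTNF3 are secreted proteins that carry a short collagen-like stretch. Fibroblasts and other mesenchymal cells are the classic source of these proteins in adult tissue. A blastocyst consists of trophectoderm, inner cell mass and hypoblast, and its own matrix is mainly basement membrane.

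The 2 arrays of opposite dye orientation that carried the same extracts were averaged as a swap pair. This left 4 AAPH pools and 4 control pools, numbered by their swap pair. Pools 1 and 2 were on slide 26 and pools 3 and 4 on slides 78 and 79. Which arrays share extracts was derived from the data, since the labels do not say it. Signal is the log2 intensity of 1 probe in 1 pool, comparable between pools for that probe and not between probes. A ratio is the log2 AAPH signal minus the log2 control signal of a swap pair, and its SD is taken over the 4 pairs. A probe was counted as detected on an array when it was above the negative control spots there. From 15957 to 36066 probes were detected per array and dye, and on slides 78 and 79 fewer were so in Cy5 (15957 to 22399) than in Cy3 (28364 to 30521). With limma, 0% of kept probes (0 of 32931) passed an adjusted p of 0.05, and the smallest adjusted p was 0.146. An unadjusted p under 0.05 was reached by 4423 probes, 1871 of them higher and 2552 lower in AAPH. With eBayes set to a trended, robust variance the count was likewise 0. Fits to the 8 single arrays called 319 probes with the swap pair as a replicate block and 930 without it.

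Blastocyst markers were detected in both treatments, though not all of them on every array. On all 8 arrays in both kinds of RNA, 8 of 12 trophectoderm markers, 3 of 7 inner cell mass markers and 6 of 8 hypoblast markers were detected. The trophectoderm keratins KRT8 and KRT18, the trophoblast interferon IFNT and the inner cell mass factors POU5F1 and NANOG were among them. CDX2, a trophectoderm factor, was detected in AAPH RNA on 4 arrays and in control RNA on 5, SOX2 on 7 and 6, and SALL4 on 3 and 4. Beside them, 6 of the 7 matrix genes had a higher AAPH than control signal in 4 of 4 swap pairs, and COL1A2 had it in 3 of 4. The same was true in 4 of 4 pairs for 12.4% of all genes with a kept probe. The median ratio over the 7 genes, each by its brightest probe, was 1.11, and the median over all kept probes was 0.00064. In swap pairs 1 to 4 the median over the 7 genes was 1.55, 1.65, 1.00 and 0.552. It was 1.44 within slide 26 and 0.776 within slides 78 and 79. In pools of whole embryos, more cells that express a gene and more RNA per cell cannot be told apart.

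**Figure D1:**
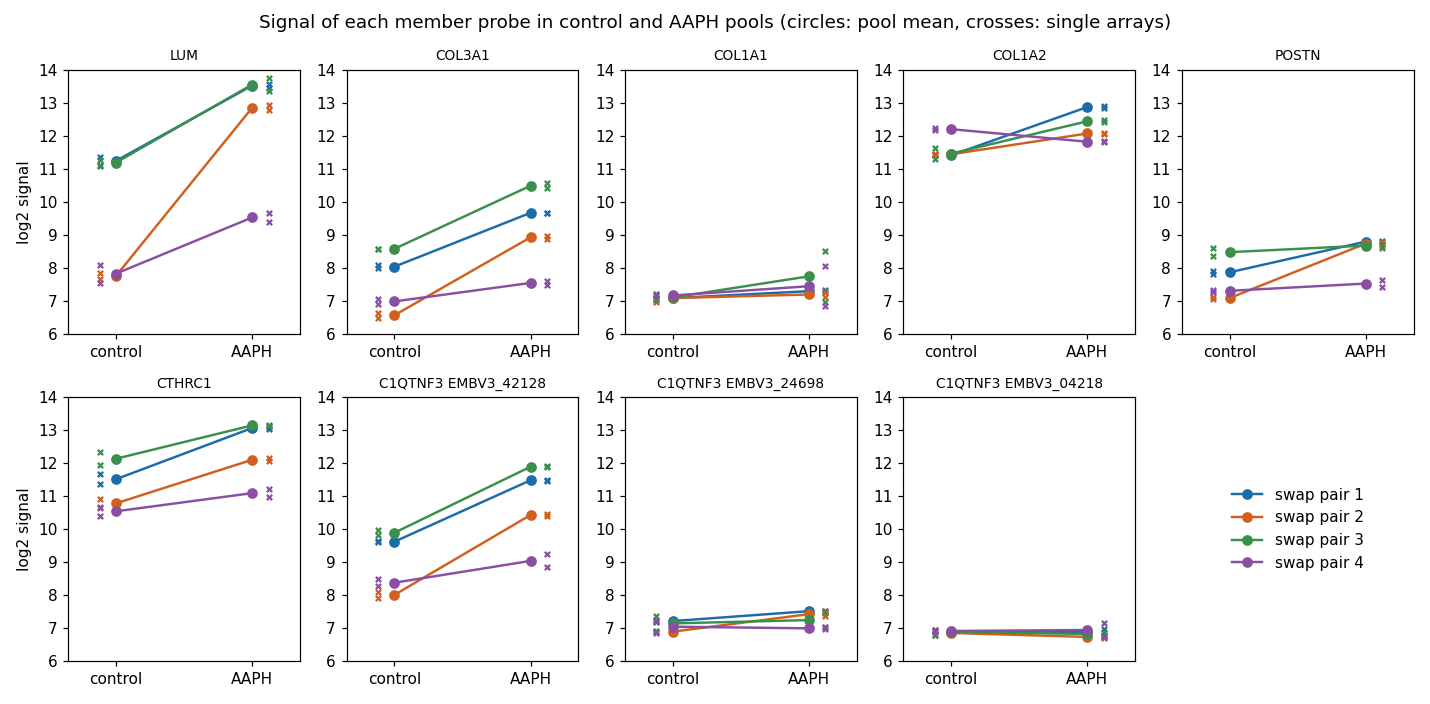
Log2 signal of each of the 9 probes in control pools and AAPH pools. Circles are pool means joined within a swap pair and crosses are the single arrays. LUM runs from 7.76 to 11.24 in control pools and from 9.53 to 13.55 in AAPH pools, while the third C1QTNF3 probe stays between 6.74 and 6.95.

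COL3A1 (probe EMBV3_17889), the type III collagen chain, had a larger ratio than either type I chain. Its AAPH signal was 9.67, 8.93, 10.49 and 7.55 in pools 1 to 4. Its control signal was 8.04, 6.57, 8.58 and 6.99. The AAPH pool was the brighter one in every swap pair, but AAPH pool 4 was dimmer than control pools 1 and 3, so the groups overlapped. The ratio was 1.61 ± 0.76 (SD, n = 4), a fold of 3.06, with the lowest pair at 0.56 and the highest at 2.36. In AAPH RNA COL3A1 was detected on 8 of 8 arrays, and in control RNA on 5 of 8. In control pool 2 it was detected on 0 of 2 arrays and in control pool 4 on 1 of 2, so the ratio of swap pair 2 rests on a control signal at the floor.

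COL1A2 (EMBV3_05677), the other type I chain gene beside COL1A1, was detected on all 8 arrays in both treatments. AAPH signal was 12.87, 12.07, 12.44 and 11.82 in pools 1 to 4. Control signal was 11.41, 11.44, 11.46 and 12.20. Control pools 1 to 3 lay close together, and control pool 4 stood above them and above its AAPH partner. The ratio of COL1A2 was 0.67 ± 0.78 (SD, n = 4), with 1.46 in pair 1 and -0.38 in pair 4. Without pair 1 the mean was 0.41, and without pair 4 it was 1.03. Arrays paired as the same pool, a pairing derived from the data, differed by at most 0.06 in AAPH RNA and 0.32 in control RNA.

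COL1A1 (EMBV3_01655), whose product pairs with that of COL1A2, had a dim probe. Its AAPH signal was 7.30, 7.20, 7.75 and 7.45 in pools 1 to 4. Its control signal was 7.09, 7.09, 7.11 and 7.17, a narrow band. COL1A1 was the only one of the 7 genes whose AAPH pools all lay above its control pools, by a gap of 0.03, against 1.05% of all genes. The ratio was 0.31 ± 0.23 (SD, n = 4), and without pair 3 it was 0.20. This small ratio moved with the dye. On the 4 arrays with AAPH in Cy5 the mean was 0.65 ± 0.56, and on the 4 with AAPH in Cy3 it was -0.03 ± 0.22. The dye difference came from slides 78 and 79, where the arrays with AAPH in Cy5 gave 1.34 and 0.87 and those with AAPH in Cy3 gave -0.06 and -0.32. On slide 26 the 4 arrays gave 0.06 to 0.23 in both orientations. COL1A1 was detected in AAPH RNA on 7 arrays and in control RNA on 6, and its gap between groups is smaller than the largest difference between arrays of the same pool, 1.57 in AAPH RNA.

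LUM (EMBV3_36151), the collagen-binding proteoglycan lumican, had the highest ratio of all kept probes. AAPH signal was 13.52, 12.85, 13.55 and 9.53 in pools 1 to 4. Control signal was 11.24, 7.76, 11.19 and 7.83. Control pools thus fell into a bright pair, 1 and 3, and a dim pair, 2 and 4, and AAPH pool 4 lay between these levels while the other AAPH pools lay above both. The ratio was 2.86 ± 1.52 (SD, n = 4), a fold of 7.26, and its values in pairs 1 to 4 were 2.29, 5.10, 2.36 and 1.70. Pair 2, with a dim control pool and a bright AAPH pool, gave the highest ratio, and without it the mean was 2.12. Within slide 26 the mean was 3.69 and within slides 78 and 79 it was 2.03. All 8 arrays detected LUM in both treatments, and arrays paired as the same pool differed by at most 0.43 in AAPH RNA and 0.54 in control RNA.

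The spread of LUM between pools of the same treatment was wider, on the log2 scale, than its mean ratio. The brightest control pool was 11.1-fold above the dimmest, and in AAPH pools this range was 16.3-fold. By its SD over the 4 control pools LUM ranked 4 among the 32931 kept probes, and by its SD over the 4 AAPH pools it ranked 8. Its SDs were 1.98 in control and 1.92 in AAPH, while the median over all kept probes was 0.167 in control pools and 0.178 in AAPH pools.

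POSTN (EMBV3_04630) encodes periostin, a matricellular protein that binds collagen and integrins. AAPH signal was 8.80, 8.74, 8.68 and 7.53 in pools 1 to 4. Control signal was 7.87, 7.09, 8.48 and 7.31. AAPH pools 1 to 3 lay together above the control pools, and AAPH pool 4 was dimmer than control pools 1 and 3. The ratio was 0.75 ± 0.69 (SD, n = 4), with 0.93 in pair 1, 1.65 in pair 2, 0.19 in pair 3 and 0.23 in pair 4. Without pair 2 the mean was 0.45. Slide 26 gave 1.29 and slides 78 and 79 gave 0.21, a contrast between slides left untested. POSTN was detected in AAPH RNA on 8 arrays and in control RNA on 7, and in control pool 4 on 1 of 2. Control pool 2, at 7.09, was detected but dim, so the ratio of pair 2 rests on a control signal near background.

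CTHRC1 (EMBV3_09586), a secreted protein of remodelling matrix, was higher in AAPH in every swap pair, by unequal amounts. AAPH signal was 13.06, 12.10, 13.14 and 11.09 in pools 1 to 4. Control signal was 11.51, 10.78, 12.13 and 10.54. Each AAPH pool was brighter than its control partner, and the pools ran in the same order in both treatments: 3, 1, 2 and 4 from bright to dim. The ratio was 1.11 ± 0.43 (SD, n = 4), a fold of 2.15, with pair values of 1.55, 1.33, 1.00 and 0.55. Relative to its mean this was the smallest spread over pairs among the 7 genes. Leaving out any pair kept the mean between 0.96 and 1.29, and all 8 arrays detected CTHRC1 in both treatments.

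C1QTNF3 encodes a secreted protein of the C1q and tumour necrosis factor family, with a collagen-like tail, and its 3 probes did not give the same values. The brightest, EMBV3_42128, had an AAPH signal of 11.48, 10.43, 11.89 and 9.04 in pools 1 to 4. Its control signal was 9.62, 8.01, 9.89 and 8.38. AAPH pools 1 to 3 lay above all control pools, and AAPH pool 4 lay within the control range. The ratio of this probe was 1.73 ± 0.75 (SD, n = 4), a fold of 3.33, and all 8 arrays detected it in both treatments.

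The second C1QTNF3 probe, EMBV3_24698, had a ratio of 0.22 ± 0.25 (SD, n = 4), with pair values of 0.30, 0.52, 0.10 and -0.04. It was detected on 6 arrays in each treatment. Its signal varied with that of the first probe over the 8 pools but over a narrower range (7.00 to 7.52 in AAPH pools and 6.90 to 7.22 in control pools), with a correlation of 0.822. The third probe, EMBV3_04218, was detected in AAPH RNA on 3 arrays and in control RNA on 5, and its ratio was -0.04 ± 0.06 (SD, n = 4). Its correlation with the first probe was -0.418, on signal near background. The difference between treatments for C1QTNF3 therefore rests on 1 of its 3 probes. The sources used here do not give the stretch of transcript that each probe matches. With the mean over all kept probes of each gene in place of the brightest, the median over the 7 genes was 0.75 rather than 1.11.

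**Figure D2:**
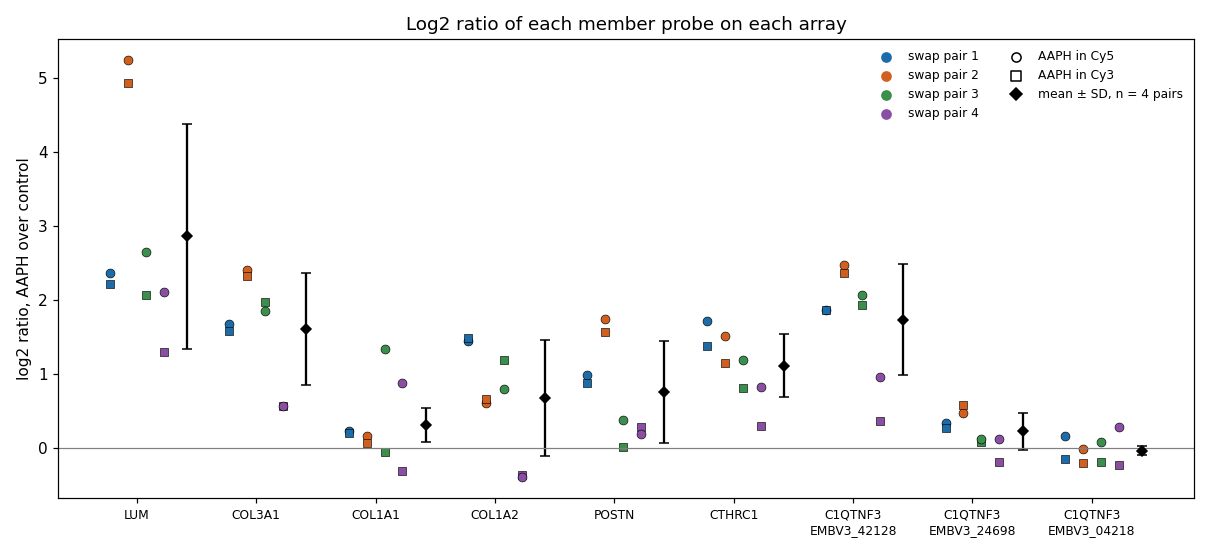
Log2 ratio of AAPH over control for each probe on each of the 8 arrays, coloured by swap pair, with circles for AAPH in Cy5 and squares for AAPH in Cy3. Diamonds and bars are the mean and SD over 4 swap pairs. The dye orientations nearly coincide for COL3A1 but lie apart for COL1A1 in swap pairs 3 and 4, where Cy5 gave 1.34 and 0.87 and Cy3 gave -0.06 and -0.32.

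In the authors' deposited table of log2 ratios the same 9 probes had nearly the same means. LUM was at 2.84 ± 1.47 there, COL3A1 at 1.50, COL1A1 at 0.28, COL1A2 at 0.68, POSTN at 0.67 and CTHRC1 at 1.11 when that table's arrays were averaged by the same swap pairs. The C1QTNF3 probes were at 1.70, 0.18 and -0.03 in the authors' deposited table.

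The order of the pools was alike for most of the genes. It comes from the same signals as the ratios the genes were selected on, so it is a description and adds no support. Each gene was taken by its brightest probe. Control pools 1 and 3 were both brighter than control pools 2 and 4 for 5 of the 7 genes: LUM, COL3A1, POSTN, CTHRC1 and C1QTNF3. The C1QTNF3 probe EMBV3_04218, near background, did not have this order. Of all genes with a kept probe, 13.2% had this order. AAPH pool 4 was the dimmest AAPH pool for 6 of the 7 genes, the exception being COL1A1, against 24.2% of all genes. Swap pair 4 gave the lowest ratio for 5 of the 7 genes, the exceptions being COL1A1 and POSTN, against 29.9% of all genes. The ratio is a measure the selection used. Pools 1 and 2 shared slide 26 and pools 3 and 4 shared slides 78 and 79, and the part of the slide in this order was not tested.

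These 5 genes were grouped by their pool order, so their correlations over the same pools partly restate that order and are given only as a description. C1QTNF3, by its brightest probe, correlated in log2 signal with COL3A1 at 0.994 and with CTHRC1 at 0.979. LUM correlated with POSTN at 0.959 and with COL3A1 at 0.956. After the mean of each treatment was subtracted, which removes the difference the genes were chosen by, these values were 0.991, 0.971, 0.941 and 0.924. For the type I chains, outside that group by the same order, the values were lower. LUM correlated with COL1A2 at 0.526 before and 0.157 after centring, and with COL1A1 at 0.459 and -0.016. COL1A1 and COL1A2 themselves correlated at 0.558 before and 0.136 after centring. These are descriptions over 8 pools, in which the AAPH and the control pool of a swap pair share their arrays, and COL1A1 was near background.

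Averaged over the 7 genes after each was standardised to mean 0 and SD 1 over the 8 pools, the AAPH pools stood at 1.07, 0.41, 1.35 and -0.39 and the control pools at -0.38, -1.17, -0.05 and -0.82. AAPH pool 4 thus lay among the control pools and below control pools 1 and 3. The 10 other genes whose signal was most like this average had correlations of 0.957 to 0.981 over the 8 pools, where the median over 12599 genes was 0.018 and 69 genes were above 0.9. The average holds the difference between treatments, so a high correlation and a ratio away from 0 are linked by construction. PAM, an enzyme that amidates peptides, had the highest correlation, and its ratio was 1.46 ± 0.82 (SD, n = 4). MSRB3, which repairs oxidised methionine, had a ratio of 1.12 ± 0.58 and a correlation of 0.957, and GPX7, a peroxidase of the endoplasmic reticulum, had 0.53 ± 0.26 and 0.965. The cell surface proteoglycan GPC4 was at a ratio of 0.58 ± 0.23, the nuclear receptor coactivator NCOA7 at 1.05 ± 0.45 and the cytokine receptor subunit IL27RA at 1.13 ± 0.85. CNTNAP4, TARSL2, FAM13A1 and SQRDL completed the 10, with ratios of 0.27 ± 0.12, 0.72 ± 0.27, 0.44 ± 0.16 and 0.27 ± 0.13. All 10 were detected in AAPH RNA on 8 of 8 arrays, and in control RNA CNTNAP4 was detected on 6, GPC4 on 7 and the others on 8. None of the 10 passed after adjustment over all probes (limma, lowest adjusted p = 0.151).

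**Figure D3:**
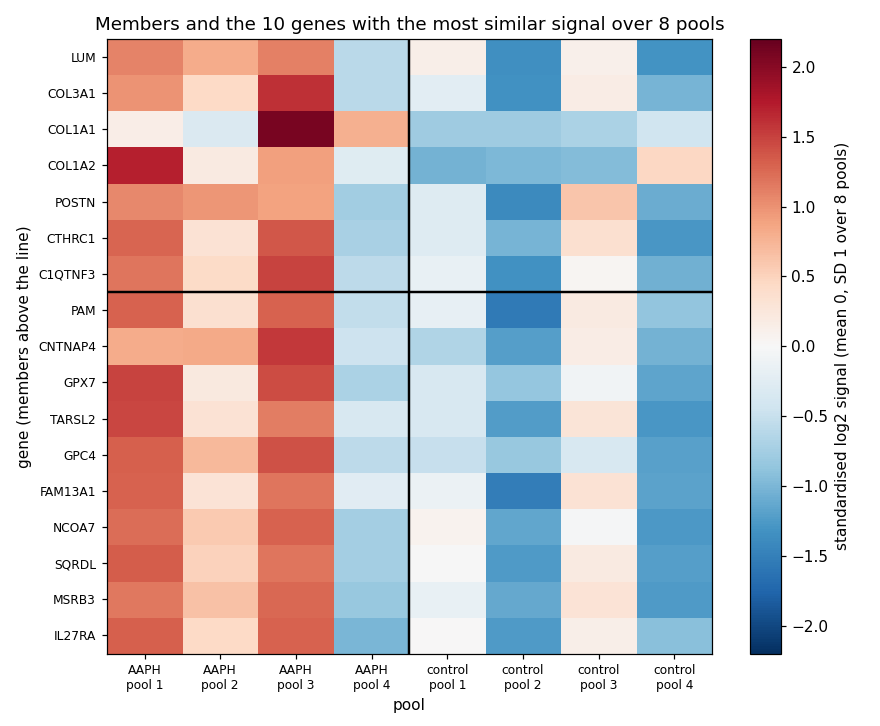
Standardised log2 signal (mean 0, SD 1 over 8 pools) of the 7 genes, above the line, and of the 10 genes most like their average, below it, in the 4 AAPH and 4 control pools. AAPH pools 1 and 3 are darkest red for most genes, AAPH pool 4 is pale blue like the control pools, and COL1A1 and COL1A2 depart from the other rows.

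Around the 7 genes, 126 genes of the wider collagen pathway were listed in 6 groups, and 96 of the 113 on the array had a kept probe. Of these 96, 0 passed after adjustment over all probes (limma). At an unadjusted p under 0.05, 17 were higher in AAPH (17.7%) and 4 lower (4.17%), where 7.66% of all genes were higher and 7.33% lower. The lists were drawn up with earlier results of these data known, so these shares are a description and add no support. The ratio was positive for 59 of the 96 (61.5%), where it was positive for 52.2% of all genes. The median of each group lay between 0.03 and 0.12, beside 1.11 for the 7 genes, which were chosen by their ratio.

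Among other fibrillar, fibril-associated and microfibrillar collagens, 3 of 15 were higher at an unadjusted p under 0.05 and 0 were lower, with a median of 0.03. COL27A1, a minor fibrillar collagen, had a ratio of 0.22 ± 0.14 (SD, n = 4), COL8A1, a short-chain collagen of networks, 0.50 ± 0.47, and COL12A1, which decorates type I fibrils, 0.28 ± 0.28. COL8A1 was detected in AAPH RNA on 6 arrays and in control RNA on 7. The cartilage fibril chain COL2A1 was in this group too and stood at -0.01 ± 0.08. It was near background, with detection in AAPH RNA on 6 arrays and in control RNA on 5. COL5A1 and COL5A2, whose products copolymerise with type I collagen, were not analysed here under these symbols.

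Basement membrane genes, which form the embryo's own matrix, went both ways, with a median of 0.039 over 15 genes, 2 higher and 2 lower. NID2, a nidogen that links laminin to collagen IV, had 0.47 ± 0.26 (SD, n = 4) and COL4A5 had 0.39 ± 0.30. The other kept probe of COL4A5 had a ratio of 0.12. HSPG2, the proteoglycan perlecan, had -0.50 ± 0.29 and LAMA5, a laminin chain, -0.24 ± 0.19.

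Other proteoglycans and matricellular proteins had a median of 0.12 over 20 genes, the highest of the 6 groups, with 4 higher and 0 lower. THBS1, a thrombospondin, was at 1.36 ± 0.95 (SD, n = 4), and its pair values were 1.45, 1.93, 2.08 and -0.01. THBS1 was detected in AAPH RNA on 6 arrays and in control RNA on 7. SPP1, the adhesive phosphoprotein osteopontin, was at 0.85 ± 0.85, with pair values of 0.55, 2.07, 0.65 and 0.12. It was detected on 6 arrays in each treatment. The small leucine-rich proteoglycans FMOD and DCN, relatives of lumican, were at 0.89 ± 1.04 and 0.78 ± 0.90. DCN was detected in AAPH RNA on 6 arrays and in control RNA on 4, and its ratio in pair 4 was -0.32. Of the other relatives of lumican, OGN, KERA, ASPN and EPYC had no kept probe, OMD was at 0.03 ± 0.06 and PRELP at 0.07 ± 0.08. PRELP was near background, with detection in AAPH RNA on 4 arrays and in control RNA on 3.

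Enzymes and chaperones of collagen biosynthesis, processing and crosslinking had a median of 0.032 over 25 genes, with 5 higher and 0 lower. P4HA1, a prolyl hydroxylase subunit that stabilises the triple helix, had 0.33 ± 0.10 (SD, n = 4). PLOD2, a lysyl hydroxylase that sets crosslinks, had 1.34 ± 1.07. These are the brightest probes, and the 2 other kept probes of each gene had lower median ratios, 0.14 for P4HA1 and 0.42 for PLOD2. LOXL4, a lysyl oxidase, had 0.56 ± 0.33, and SERPINH1, the collagen chaperone HSP47, had 0.25 ± 0.15. SERPINH1 was detected in AAPH RNA on 6 arrays and in control RNA on 5. The lysyl oxidase LOX itself was at 0.03 ± 0.01, with detection on 6 and 7 arrays. Its signal was near background, where a ratio near 0 does not show an unchanged level. P4HB, the other subunit of the prolyl hydroxylase, was at -0.21 ± 0.30.

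Among collagen receptors and degrading enzymes, the median was 0.039 over 14 genes, with 1 higher and 2 lower. ITGA11, an integrin chain that binds fibrillar collagen, had -0.31 ± 0.06 (SD, n = 4) and its partner ITGB1 had -0.26 ± 0.15, both lower in 4 of 4 pairs. ITGA11 was detected on 8 arrays in each treatment but ITGB1 on only 4, so the ITGB1 ratio rests on signal near background. CTSK, a collagen-cleaving cathepsin, had 0.37 ± 0.36. In TGF beta signalling, which drives collagen transcription in fibroblasts, 2 of 7 genes were higher, with a median of 0.055. The ligand TGFB3 had 0.77 ± 0.42 and was detected in AAPH RNA on 6 arrays and in control RNA on 3. The receptor TGFBR2 had 0.26 ± 0.23, and its other kept probe had a ratio of 0.02.

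**Figure D4:**
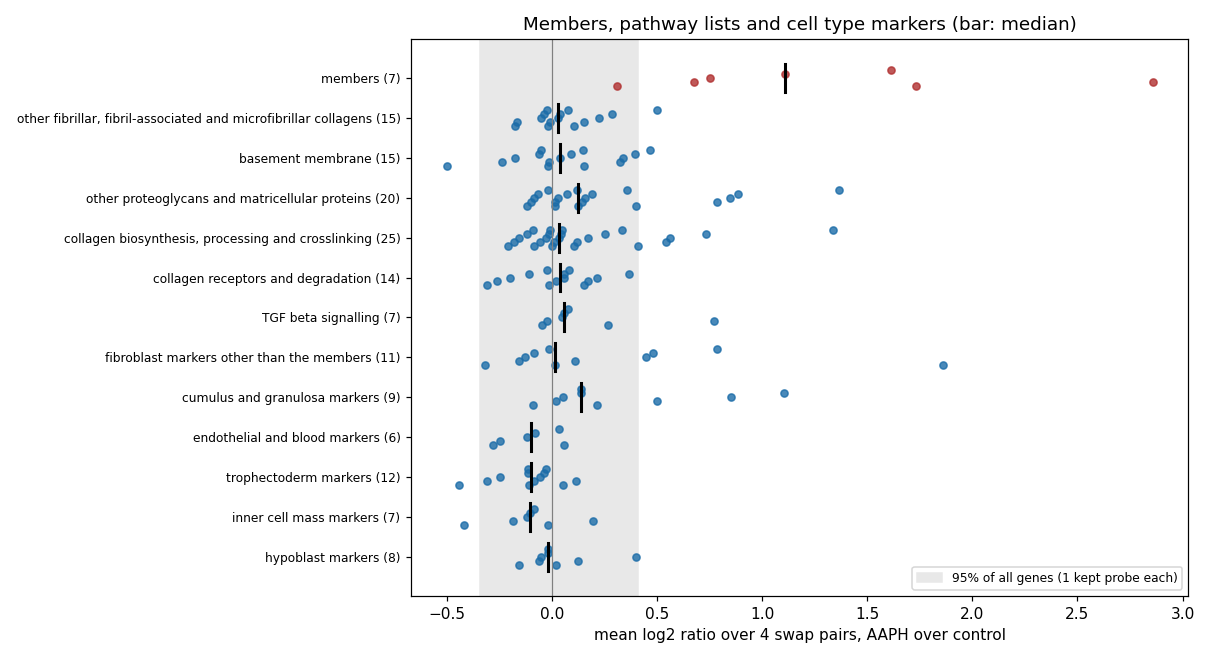
Mean log2 ratio over 4 swap pairs of each gene, 1 point a gene, for the 7 genes, 6 pathway groups and 6 groups of cell type markers, with the number of genes in brackets. Bars are medians and the grey band holds 95% of all genes, from -0.343 to 0.41. The median is 1.11 for the 7 genes, which were chosen by this ratio, and between -0.1 and 0.14 for the other groups.

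Markers of cell types that make such matrix were listed separately, and the markers named were picked after their values were seen. Of 15 fibroblast markers other than the 7 genes, 11 had a kept probe, 4 were higher and 1 lower at an unadjusted p under 0.05, and the median ratio was 0.016. The mean signal of the kept fibroblast markers ran from 8.186 to 9.203 in AAPH pools and from 7.986 to 8.851 in control pools. VIM, the mesenchymal intermediate filament, was at 1.86 ± 0.62 (SD, n = 4), THY1 at 0.48 ± 0.47 and PDGFRA at 0.45 ± 0.36. The 2 other kept probes of PDGFRA had a median ratio of 0.01. DCN, at 0.78 ± 0.90, was the remaining marker counted as higher. The pair values of VIM were 1.80, 2.41, 1.00 and 2.22. Pair 4 gave the lowest ratio for 5 of the 7 matrix genes and for 29.9% of all genes. In that pair VIM was above its own mean and PDGFRA had its highest ratio, 0.79. THY1 at -0.08 and DCN at -0.32 had their lowest ratio there. TCF21, a fibroblast transcription factor, was at -0.32 ± 0.12, and ACTA2 and TAGLN of contractile fibroblasts were at -0.16 ± 0.31 and -0.08 ± 0.17. TCF21 was detected in AAPH RNA on 3 arrays and in control RNA on 5, and TAGLN on 5 and 3, both near background. ACTA2 was detected on 8 arrays in each treatment. FAP, FBLN1, PRRX1 and SNAI2 had no kept probe. The part of fibroblast-like cells in the ratios was not tested.

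Cumulus and granulosa markers had a median ratio of 0.14 over the 9 of 11 with a kept probe, with 3 higher and 0 lower. Their mean signal ran from 7.489 to 8.216 in AAPH pools and from 7.436 to 7.608 in control pools. PTX3 and TNFAIP6, proteins of the cumulus matrix, were at 1.10 ± 0.91 (SD, n = 4) and 0.85 ± 0.95, and INHBA was at 0.50 ± 0.47. The other kept markers ran from -0.09 ± 0.19 (FSHR) to 0.21 ± 0.63 (STAR), with HAS2 at 0.14 ± 0.23 and GREM1 at 0.05 ± 0.06. HAS2 was detected in AAPH RNA on 5 arrays and in control RNA on 4. PTX3 was at 2.24, 0.74, 1.35 and 0.09 in pairs 1 to 4 and TNFAIP6 at 1.91, 0.00, 1.40 and 0.10. The granulosa genes AMH and FOXL2 had no kept probe. The part of cumulus or granulosa cells was not tested.

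Endothelial and blood markers had a median of -0.1 over 6 of 8 genes, with 0 higher and 0 lower, and mean signals of 7.027 to 7.175 in AAPH pools and 7.049 to 7.451 in control pools. KDR and LYZ had no kept probe. Of the blastocyst's own lineages, trophectoderm markers had a median of -0.099 over 12 genes, inner cell mass markers -0.1 over 7 and hypoblast markers -0.019 over 8. In that order, 2, 1 and 3 of them had a positive ratio. At an unadjusted p under 0.05, 0, 0 and 1 were higher and 1, 1 and 0 lower. These were DLX3 at -0.31 ± 0.24 (SD, n = 4), DNMT3B at -0.42 ± 0.30 and APOA1 at 0.40 ± 0.13. The other kept probe of APOA1 had a ratio of 0.2. GATA6 was not analysed under that symbol.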

How the data were processed

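Two-colour arrays compared AAPH and control RNA. The deposited scanner files give, per the file headers, linear foreground and local background intensity per spot and dye. The authors' deposited log2 ratios served as an alternative: set against the scanner ratios, their correlations were 0.967 to 0.994 and slopes 0.943 to 0.99, so the scale was log2 and the direction AAPH over control. Their column medians, array 1 to 8, were -0.0135, -0.00863, 0.0117, 0.00944, -0.0152, 0.00799, -0.0188 and -0.0197, so columns lay close to but not exactly at 0. How they were normalized is unknown, beyond limma being named in the submitters' processing notes.

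In R 4.3.3 with limma 3.58.1, normexp (offset 50) was applied to mean foreground and median background, and arrays were normalized by loess with weight 0 for control spots. Pool signals were Aquantile scaled. Probes were kept when above the median of 153 negative control spots plus 3 median absolute deviations on at least 4 of 8 arrays in 1 treatment. Each gene was represented by its brightest kept probe. Lines of column statistics (14 per file) were left out. The number of arrays limits the precision.

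Arrays of opposite dye orientation were paired by how strongly their deviations from the mean of their orientation correlated. The best of 24 pairings had correlations of 0.139 to 0.555, and the other 12 array pairs -0.343 to 0.0498. Pairs were arrays 1 and 3, 2 and 4, 7 and 5, and 8 and 6. The 4 pair ratios were tested against 0 with lmFit and eBayes (3 residual degrees of freedom), with Benjamini-Hochberg adjustment over all kept probes. The labels do not say whether pools stem from separate fertilizations, so the p-values reflect only the spread among these pools. The steps were tested on simulated data.

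Symbols came from the platform annotation, which is old: 21790 probes had a symbol and 22004 had none. All 7 genes matched the RefSeq gene table of ARS-UCD2.0. Coordinates are left out, since no source used here names the genome build of the probes. The 7 genes and the gene lists were chosen with earlier results of these data known. Named list genes are those with an unadjusted p under 0.05, at most 4 of smallest p per pathway list. COL2A1, OMD, PRELP, LOX and P4HB were added after their values were seen. Genes most like the 7 were ranked by Pearson correlation with their average.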

Additional observations from a re-analysis of the deposited data

Results flagged for a closer look

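Of 27 sets of 4 values checked (the AAPH signals, control signals and ratios of the 9 probes over the 4 pools or pairs), 2 had a value far from the other 3. Chance flags about 1 in 20 such sets. COL1A2 signal in control pool 4 was 12.2, while the other control pools were at 11.41 to 11.46. POSTN signal in AAPH pool 4 was 7.53, while the other AAPH pools were at 8.68 to 8.80. Both values came from swap pair 4. Arrays paired from the data as the same pool differed by at most 0.32 for COL1A2 in control RNA and 0.19 for POSTN in AAPH RNA.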

How the results depend on the processing

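The median ratio of the 7 genes stayed between 0.75 and 1.44 over 18 alternatives. Between 5 and 7 genes were higher in every pair or array. With detection required on all 8 arrays of a treatment, COL1A1 dropped out. That alternative covers 6 genes, with a median of 1.36 and 5 higher in every pair. The count of probes called after adjustment was 0 in 14 of 18 alternatives. Those kept to some slides or leaving out a swap pair hold only 2 or 3 pairs. With so few values, 0 calls there says little about the dependence on processing. It was 930 with 8 single arrays and a dye term but no replicate block, 319 with the swap pair as a replicate block (consensus correlation 0.304), 2155 with only the arrays that had AAPH in Cy5 and 1229 with only those that had it in Cy3. Pathway genes called were 10, 4, 12 and 4 in the same settings. Fits to single arrays treat arrays of the same extracts as separate samples, and single orientations leave any dye effect in the ratio. COL1A1 turned to -0.03 with AAPH in Cy3 only. The C1QTNF3 probe EMBV3_04218 turned to 0.01 with median centring and to 0.12 with AAPH in Cy5 only. The cause of these turns was not tested. Leaving out each swap pair in turn gave 0 called probes and a median between 0.959 and 1.29. Of the 7 genes, COL1A1, the C1QTNF3 probes EMBV3_24698 and EMBV3_04218, and COL3A1 and POSTN in control RNA were limited by signal near background. Among the listed genes, ITGB1, LOX, COL2A1, PRELP, TCF21 and TAGLN were among those with the same limit.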
